A study of Homo sapiens with 4 samples.

Results

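The factors described are 10 immediate early and AP-1 transcription factors, namely FOS, FOSB, FOSL1, FOSL2, JUN, JUNB, JUND, EGR1, NR4A2 and ATF3, of 18417 genes measured. Each was taken by its symbol and had 1 probe set on the array. RNA came from MDA-MB-231, a basal-like line of human breast cancer cells. The cells had received, by lipofection with Lipo2000, either a plasmid that expresses the forkhead protein FOXC1 or the control vector, and both groups were grown in DMEM with 10% fetal bovine serum. There were 2 FOXC1 and 2 vector arrays, called biological replicates in the labels, and the time of harvest, the resting state of the cells and whether the transfection was transient or stable were not given in the sources used here. All values are PLIER signals, a linear measure of array brightness per probe set. Changes are FOXC1 minus vector on the scale of log2(signal + 16), fitted with limma over all named probe sets with Benjamini-Hochberg adjustment, and a gene is said to have risen or fallen where the adjusted p was below 0.05.

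AP-1 is a dimer of basic leucine zipper proteins. FOS family proteins (FOS, FOSB, FOSL1, FOSL2) cannot pair with each other and bind DNA with a JUN family partner (JUN, JUNB, JUND), which can also pair among themselves. FOS, FOSB and EGR1 are textbook immediate early genes: growth factors and serum switch them on within minutes through ERK signalling, the serum response factor SRF and its ETS partners, and their transcripts are short lived. FOSL1, also called Fra-1, accumulates later under sustained ERK signalling and is a prominent AP-1 subunit of invasive, basal-like breast cancer cells. EGR1 is a zinc finger activator, NR4A2 an orphan nuclear receptor, and ATF3 a basic leucine zipper factor of the ATF family that stress induces.

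FOS, FOSB and EGR1 have in common that their promoters respond to serum, and JUN is known to bind and drive its own promoter. The 150 bases before the start of these 4 genes are printed, on the strand of the gene. Of these stretches only that of EGR1 holds the SRF-binding CArG box. They are RefSeq sequence of the human assembly GRCh38.p14 and lie outside the transcribed part. Capitals mark TGACG, the core of the cAMP response element, on either strand, and TATAA on either strand in FOS and FOSB. They mark the SRF-binding CArG box and TGACG in EGR1, and in JUN the site TGACATCA together with TGACG.
FOS, chr14:75278678-75278827, plus strand: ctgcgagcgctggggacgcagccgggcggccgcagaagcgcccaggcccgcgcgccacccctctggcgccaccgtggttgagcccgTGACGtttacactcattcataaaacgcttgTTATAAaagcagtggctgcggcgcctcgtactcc
FOSB, chr19:45467846-45467995, plus strand: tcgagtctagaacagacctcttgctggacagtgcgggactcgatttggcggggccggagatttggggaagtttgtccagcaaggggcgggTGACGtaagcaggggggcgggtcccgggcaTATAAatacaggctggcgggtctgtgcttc
EGR1, chr5:138465329-138465478, plus strand: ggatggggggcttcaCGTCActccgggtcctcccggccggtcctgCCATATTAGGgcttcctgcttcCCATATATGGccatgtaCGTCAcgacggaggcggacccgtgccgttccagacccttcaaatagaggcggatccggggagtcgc
JUN, chr1:58784048-58784197, minus strand: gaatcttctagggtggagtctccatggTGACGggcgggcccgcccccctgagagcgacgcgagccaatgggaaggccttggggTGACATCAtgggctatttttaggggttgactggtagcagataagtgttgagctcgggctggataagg

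Promoter sequence was at hand for 8 of the 10 genes, ATF3 with 2 start sites, and not for FOSL1 and NR4A2. In the 250 bases before the start, searched on both strands, a CArG box was found in EGR1 alone among these genes, at 105 and 83 bases before the start. Bases further upstream were not searched, so a gene without a box here may carry one there. Of all 35116 windows of that length 1.16% hold such a box. TGACG stood 64 bases before the start of FOS and 60 before that of FOSB, with TATAA 33 and 30 bases before the start. JUNB (TGACG at 137, TATAA at 31) and JUND held both as well. TGACG is found in 21.2% of all windows and TATAA in 18.9%. JUN carried TGACATCA 67 bases before its start and the more upstream ATF3 promoter 123 bases before its own, against 2.37% of all windows. TGANTCA, a loose form of the AP-1 site with any middle base, was found in 0 of the 9 windows of these genes and in 6.57% of all windows. The forkhead core GTAAACA was found in JUNB alone, 166 bases before its start, and in 2.98% of all windows. Matches of TATAA on both strands overlap in FOS, as do those of TGACG in JUND, and the other motifs share no letters in the printed windows. The matches describe letters in a window and do not show binding.

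Most of the 10 factors were lower in FOXC1 cells. 8 of them fell, 0 rose, and FOSL1 and JUNB did not pass. Over all 18417 genes 15.5% fell and 15.9% rose, 31.4% together. The median log2 change of the 10 factors was -0.38, beside 0.03 over all genes. Both FOXC1 arrays lay below both vector arrays for 8 factors, which held for 26.4% of all genes, and above them for FOSL1, which held for 37.1%. All 10 factors had a mean signal above 277, the 25th percentile of the tested probe sets. In bulk RNA, fewer cells carrying a transcript and less of it per cell cannot be told apart.

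**Figure D1:**
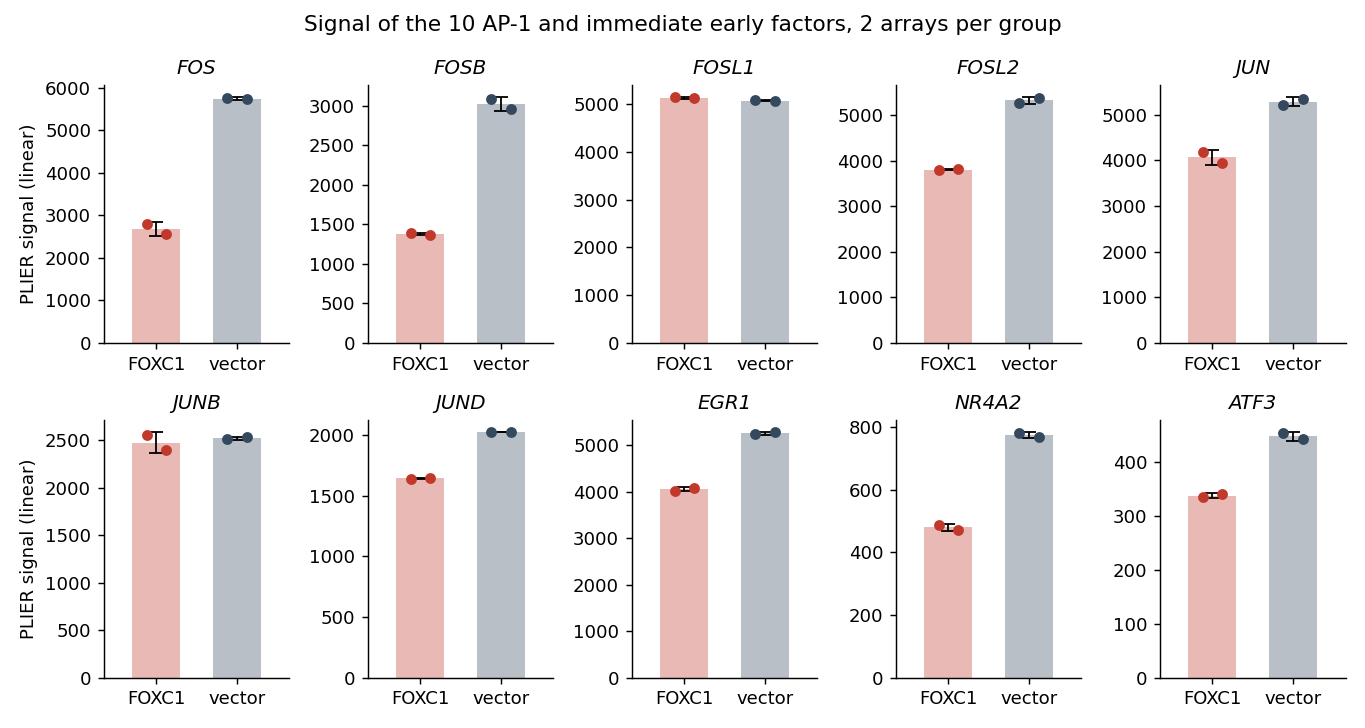
Linear PLIER signal (vertical axes, each from 0) of the 10 factors, FOXC1 arrays on the left and vector arrays on the right of each panel. Points are single arrays, bars means and whiskers SD (n = 2). The points of the groups lie close to each other for FOSL1 and JUNB and well apart for the other 8.

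The FOS family split. FOS itself had signals of 2802 and 2561 in the FOXC1 arrays, against 5770 and 5727 in the vector arrays. Both FOXC1 arrays were far below both vector arrays, and their own gap was the wider one. The transcript fell 2.14-fold (log2 -1.10 ± 0.04 SE, limma adjusted p = 2.43e-15). FOSB, another rapidly induced subunit, gave 1391 and 1370 in FOXC1 cells, against 3081 and 2953 in vector cells. Its groups were again well apart, and it fell 2.17-fold (log2 -1.12 ± 0.04 SE, limma adjusted p = 1.30e-14). The log2 ratio of FOSB to FOS within an array was -0.95 ± 0.08 in FOXC1 and -0.93 ± 0.04 in vector arrays (SD, n = 2 each), so that the difference of -0.02 between the groups was smaller than the spread between arrays. This pair was picked after its values were seen. Of all genes, 88 fell by more than FOSB on the log2 scale and 94 by more than FOS, and 127 fell at least 2-fold.

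FOSL2, or Fra-2, had 3796 and 3806 in FOXC1 cells, against 5272 and 5372 in vector cells. The FOXC1 arrays were nearly alike and lay below both vector arrays, and FOSL2 fell 1.40-fold (log2 -0.48 ± 0.03 SE, limma adjusted p = 8.69e-11). FOSL1 had 5136 and 5114 in FOXC1 cells, against 5074 and 5066 in vector cells. Although these arrays did not overlap, the gap was slight, and FOSL1 did not pass (log2 0.02 ± 0.03 SE, limma adjusted p = 0.739). The 95% interval of its change ran from -0.05 to 0.08, which leaves out a change of the size seen in FOSL2, FOS or FOSB. The sign of so small a value followed the scaling, and it was -0.03 when each array was centred on the median of all its probe sets.

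Of the JUN family, JUN had 4176 and 3946 in FOXC1 cells, against 5211 and 5351 in vector cells. The groups did not overlap, and JUN fell 1.30-fold (log2 -0.38 ± 0.03 SE, limma adjusted p = 1.40e-08). JUND, in most cells the steadily expressed member, had 1638 and 1647 in FOXC1 cells, against 2020 and 2023 in vector cells. Replicates agreed closely, and JUND fell 1.23-fold (log2 -0.30 ± 0.04 SE, limma adjusted p = 1.64e-05). JUNB, which can restrain JUN activity, had 2557 and 2400 in FOXC1 cells, against 2510 and 2532 in vector cells. Here the vector arrays lay between the FOXC1 arrays, and JUNB did not pass (log2 -0.03 ± 0.04 SE, limma adjusted p = 0.694). The 95% interval of its change ran from -0.11 to 0.06, and without FOXC1 replicate 2 the log2 value was 0.02.

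Among the factors outside the FOS and JUN families, EGR1 had 4025 and 4086 in FOXC1 cells, against 5232 and 5276 in vector cells. EGR1, whose promoter carries the CArG boxes printed above, fell 1.29-fold with no overlap of the groups (log2 -0.37 ± 0.03 SE, limma adjusted p = 4.63e-09). NR4A2 had 487 and 472 in FOXC1 cells, against 781 and 768 in vector cells. Both FOXC1 arrays lay well below both vector arrays, and NR4A2 fell 1.60-fold (log2 -0.67 ± 0.07 SE, limma adjusted p = 9.79e-08). ATF3 had 334 and 340 in FOXC1 cells, against 453 and 441 in vector cells. It fell 1.31-fold with no overlap of the groups and the largest SE of the 10 (log2 -0.39 ± 0.08 SE, limma adjusted p = 0.000662). 

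**Figure D2:**
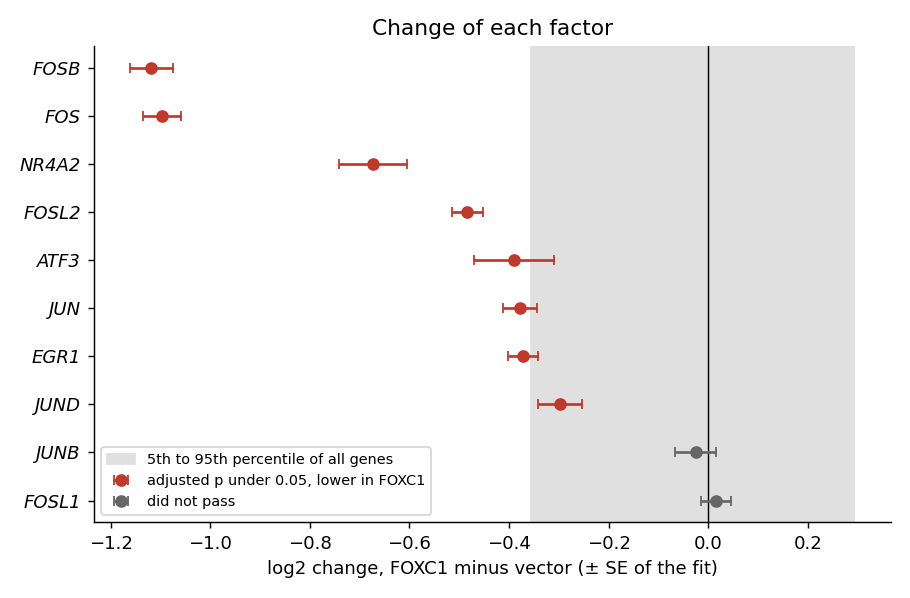
Log2 change of each factor (horizontal axis, FOXC1 minus vector, points with the SE of the limma fit), in order of size. The grey band runs from the 5th to the 95th percentile of all genes, -0.36 to 0.29. FOSB and FOS lie furthest out at -1.12 and -1.10, while JUNB and FOSL1 lie at 0 within their SE.

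The contrast of FOS, FOSB and EGR1 with FOSL1 and JUN asks whether the rapid serum-response factors moved apart from a later AP-1 subunit and its JUN partner. Levels of different probe sets cannot be set against each other, and only the shift of such a ratio between the groups carries information. The mean log2 signal of the first 3 minus that of the other 2 was -0.88 in each FOXC1 array, and -0.18 and -0.22 in the vector arrays. It was therefore lower by 0.68 log2 units in FOXC1 cells (-0.88 ± 0.0006 against -0.20 ± 0.03, SD, n = 2 each). The SD of 0.0006 is no measure of precision. FOS and JUN were both lower in FOXC1 replicate 2, and these differences offset each other in the score. In the 6 single pairs the SD of the FOXC1 arrays ran from 0.01 (FOSB with FOSL1) to 0.09 (FOS with FOSL1). The members were chosen with earlier results of these data known, so the shift is given as a description.

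The genes did not fall into these groups cleanly. Relative to FOSL1, FOS shifted by -1.11, FOSB by -1.13 and EGR1 by -0.39 log2 units, each with no overlap of the arrays. Relative to JUN, FOS shifted by -0.72 and FOSB by -0.74, again with no overlap. EGR1 did not separate from JUN: their within-array log2 ratio was -0.05 and 0.05 in FOXC1 arrays and 0.01 and -0.02 in vector arrays, a shift of 0.01 that is smaller than the spread between the FOXC1 arrays. In the exact two-sided permutation test over arrays the 5 pairs without overlap had p = 0.333, the smallest p that 2 against 2 arrays allow, and EGR1 with JUN had p = 1 (0.4 and 1 after Benjamini-Hochberg adjustment over the 6 pairs). FOSL1 and JUN also moved apart from each other, by 0.39 log2 units with no overlap, a pair picked after its values were seen. By size of change, EGR1 (log2 -0.37), JUN (-0.38), ATF3 (-0.39) and JUND (-0.30) had overlapping 95% intervals. That of FOSL2 (-0.55 to -0.42) also overlapped those of EGR1, JUN and ATF3, and that of NR4A2 (-0.82 to -0.53) those of ATF3 and FOSL2. The intervals of FOS (-1.18 to -1.02) and FOSB (-1.21 to -1.03) lay below them.

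**Figure D3:**
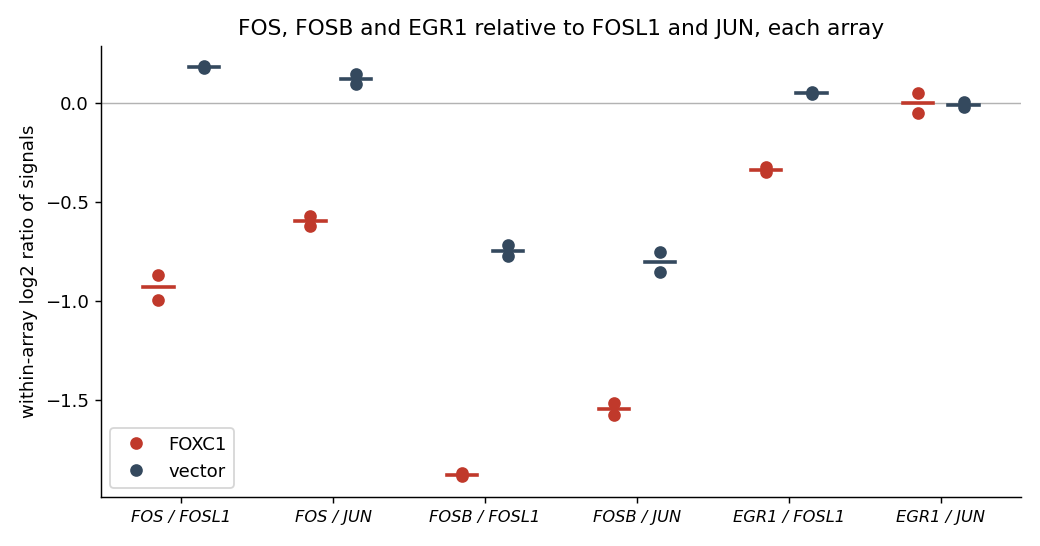
Within-array log2 ratio of signals (vertical axis) for the 6 pairs of FOS, FOSB or EGR1 with FOSL1 or JUN. Points are arrays, FOXC1 to the left of vector in each pair, and short lines are means. The groups separate in 5 pairs and overlap for EGR1 with JUN. The height of a pair reflects its probes and is not comparable between pairs.

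Other basic leucine zipper genes showed small changes in both directions. The shares to hold such counts against are the 15.5% of all genes that fell and the 15.9% that rose, 31.4% together. Of 14 measured of 16 listed, 5 fell and 4 rose, with a median log2 change of -0.003. The largest were in CREM, a cAMP response modulator with activator and repressor isoforms (1.32-fold higher), CEBPD (1.28-fold lower), the cAMP response factor CREB1 (1.16-fold lower) and the small MAF protein MAFG (1.15-fold higher). The MAFG call was lost without a variance trend (limma adjusted p = 0.0504). BATF, a neighbour of FOS on chromosome 14 that also pairs with JUN proteins, did not pass (log2 -0.03).

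Further immediate early genes moved in both directions. Of 17 measured transcription factors of this kind 9 fell and 2 rose, with a median log2 change of -0.14. The falls were led by BHLHE40 (1.40-fold), KLF10 (1.30-fold) and KLF4 (1.24-fold), while ID3, a helix-loop-helix inhibitor, rose 1.66-fold and ID1 rose as well (log2 0.20). Of 24 immediate early genes that encode other proteins 9 fell and 7 rose, with a median of 0.03. Among them the feedback inhibitor of EGFR, ERRFI1, fell 1.51-fold, and ZFP36, which speeds the decay of AU-rich transcripts, fell 1.47-fold. The peptide endothelin, EDN1, rose 2.52-fold, with 6772 and 6553 in FOXC1 cells, against 2582 and 2677 in vector cells, and the kinase SGK1 rose 1.38-fold.

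Of the 6 measured relatives and feedback partners of EGR1 and NR4A2, NR4A1 fell 1.22-fold and the EGR1 corepressor NAB1 rose 1.13-fold, a share near the 31.4% that passed over all genes. NR4A3 (log2 -0.19), EGR3 (-0.18), EGR4 (-0.05) and NAB2 (-0.03) did not pass. The NR4A1 call was lost without vector replicate 1 (limma adjusted p = 0.106). That of NAB1 was lost without vector replicate 1 (0.172), without vector replicate 2 (0.0522), without a variance trend (0.0599) and with arrays centred on the median of all probe sets (0.11).

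The genes upstream moved by small amounts. Of 26 listed kinases and SRF regulators 19 were measured. Among these 5 fell and 2, SRF (log2 0.12) and its partner ELK4 (0.12), rose, with a median of -0.05. This share too lies near the 31.4% over all genes. SRF had 5071 and 4919 in FOXC1 cells, against 4614 and 4591 in vector cells. RPS6KA1, an ERK-activated kinase, fell 1.29-fold, the SRF coactivator MRTFB 1.22-fold, RPS6KA5 1.19-fold and the JUN kinase MAPK8 1.14-fold. A smaller fall was seen in the ERK kinase MAPK3 (log2 -0.14). The RPS6KA5 call was lost without FOXC1 replicate 2 (limma adjusted p = 0.0744), without vector replicate 1 (0.172), without a variance trend (0.0651) and in a fit over all probe sets (0.0593). These are transcript levels and hold no measure of kinase activity.

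Most genes that mark ERK output in transcript data fell, as FOS did, but by uneven amounts. Of 16 measured 14 fell and 0 rose, with a median log2 change of -0.31, against 15.5% lower among all genes. ETV1 fell 1.93-fold, with 1933 and 1821 in FOXC1 cells, against 3662 and 3592 in vector cells. The EGFR ligands TGFA and EREG fell 1.85-fold and 1.60-fold, and the feedback inhibitor SPRY1 1.70-fold. Several of the falls were small: SPRED2 (log2 -0.17), ETV5 (-0.15), DUSP6 (-0.11), SPRY4 (-0.09) and EPHA2 (-0.08). These lay within the 5th to 95th percentile of all genes, -0.36 to 0.29, as did PHLDA1 (-0.35) and EPHA4 (-0.27). SPRY2 (log2 -0.06) and CCND1 (-0.04) did not pass. As the list was drawn up with earlier results known, its count is a description.

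Known AP-1 target genes showed no common direction. Of 19 measured 8 rose and 4 fell, where 15.9% of all genes rose and 15.5% fell. The median log2 change was -0.02. MMP1, a collagenase with AP-1 sites in its promoter, rose 2.76-fold, with 13306 and 13175 in FOXC1 cells, against 4878 and 4685 in vector cells. The chemokine CXCL8 rose 2.18-fold. Smaller rises were seen in MMP10 (log2 0.43), IL6 (0.34), MMP3 (0.29), TGFB1 (0.25), CD44 (0.23) and PLAUR (0.07). MMP10 and MMP3 were dim, with signals below 277 in every array. The integrin chain ITGB4 fell 5.32-fold and VEGFA 3.20-fold, and the urokinase PLAU fell (log2 -0.54) together with TIMP1 (-0.13). AXL and HMGA1 did not pass (log2 0.03 and -0.03).

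Genes of the amino acid and unfolded protein stress response, with which ATF3 is often induced, rose in 8 of 14 and fell in 4, with a median log2 change of 0.20, where 15.9% of all genes rose and 15.5% fell. DDIT3, or CHOP, rose 1.61-fold, ASNS, which makes asparagine, 1.61-fold and GDF15 1.74-fold. DDIT3 had 1199 and 1124 in FOXC1 cells, against 748 and 684 in vector cells, the opposite direction to ATF3. ATF4, which drives this programme mainly through its translation, fell (log2 -0.22), and DDIT4, an inhibitor of mTORC1 signalling, fell 4.56-fold. In the same list HSPA5 fell slightly (log2 -0.10) and XBP1 did not pass (-0.07), so the rise did not extend to all of its genes.

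**Figure D4:**
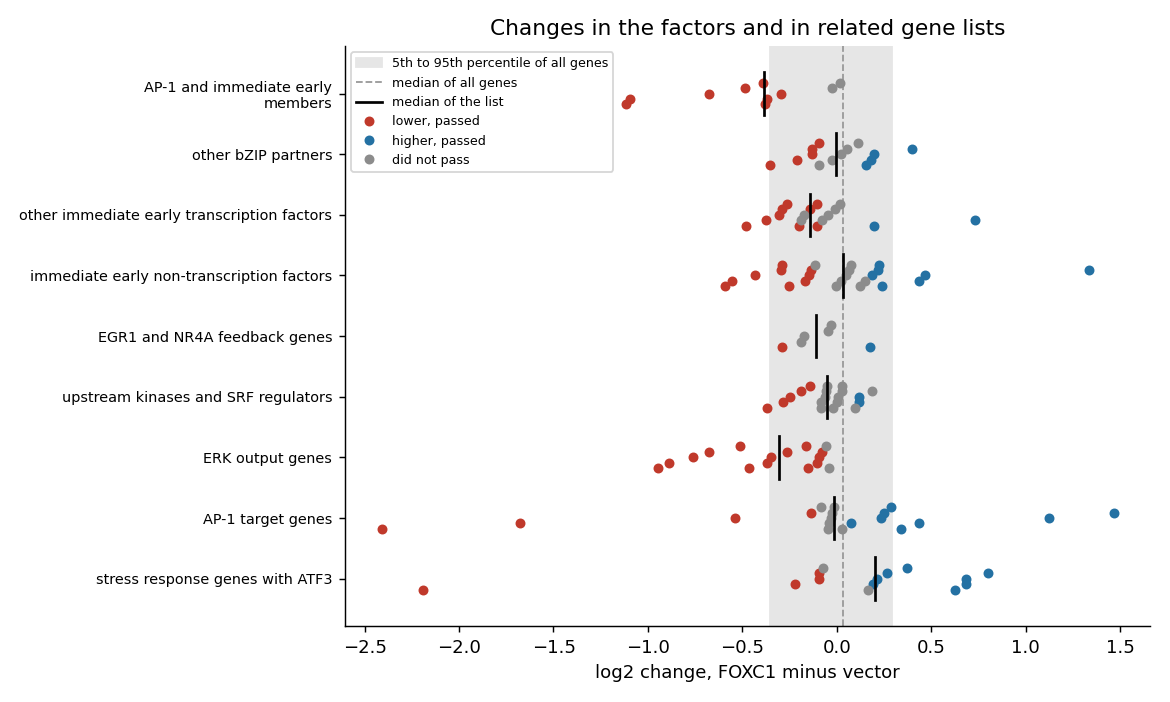
Log2 change (horizontal axis, FOXC1 minus vector) of each measured gene in the 10 factors and in 8 related lists. Points are genes, red where they fell, blue where they rose and grey where they did not pass; black bars are list medians and the grey band is the 5th to 95th percentile of all genes. The factors (median -0.38) and ERK output genes (-0.31) lie to the left, and the stress genes (0.20) to the right.

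Array quality and identity bear on these values as follows. The median signal of the arrays lay between 489 and 512, and log2 signals correlated at 0.998 across probe sets within each group and at 0.989 to 0.99 between groups. The 7 measured markers of MDA-MB-231 cells (VIM, CD44, AXL, CAV1, PLAU, ZEB1 and FN1) all had signals of at least 4076. Of these, 4 fell, namely VIM (log2 -0.06), CAV1 (-0.28), PLAU (-0.54) and ZEB1 (-0.19), and CD44 rose (0.23). The fall of VIM was slight and passed narrowly (limma adjusted p = 0.0472). The summed signal of the 7 markers was 65820 to 66399 in FOXC1 cells and 69066 to 69841 in vector cells. The estrogen and progesterone receptor genes ESR1 and PGR, which this line lacks, stayed below 273. Luminal epithelial markers moved in the direction of the factors: 6 of 8 fell and 0 rose, and their summed signal was 21115 to 21504 in FOXC1 cells and 25131 to 25578 in vector cells. Of the markers of other cell types, 2 of 6 for leukocytes rose (PTPRC and CD68), 1 of 7 for fibroblasts rose (DCN) and 1 of 5 for endothelium fell (PECAM1). Their summed signals were 10245 to 10483 against 9823 to 9885 for leukocytes, 2159 to 2258 against 2090 to 2138 for fibroblasts, and 3013 to 3081 against 3483 to 3698 for endothelium, FOXC1 against vector. PTPRC (63 to 94) and DCN (88 to 148) had signals below 277 in every array. CD68 (8460 to 9096) made up most of the leukocyte sum, and its rise was slight (log2 0.07, limma adjusted p = 0.0375). PECAM1 fell 3.15-fold, with 249 and 245 in FOXC1 cells, against 719 and 914 in vector cells. Over all genes 15.9% rose and 15.5% fell. No marker was listed at 0, and the part of these marker shifts in the results was not tested. The FOXC1 transcript was not analysed here, so the group labels were not checked against it.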

How the data were processed

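Gene expression was measured on 4 Affymetrix HuGene arrays, 2 of FOXC1-transfected and 2 of vector-transfected MDA-MB-231 cells. The authors summarised the probes to a linear PLIER signal, an array intensity, in Affymetrix Expression Console, per the labels and the submitters' processing notes. The sources used here do not give its background and normalization options. The deposited intensity values were used unchanged, with 16 added before log2, which shrinks changes of dim probe sets.

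Of 33297 probe sets, 21214 carried a gene symbol in the platform annotation (19460 with 1 symbol, 1754 with several). The test over these was that of limma 3.58.1 (R 4.3.3; lmFit and eBayes with a trend, two-sided, 2 residual and 18.1 prior degrees of freedom), with Benjamini-Hochberg adjustment over all of them. Genes were counted over the brightest probe set with 1 symbol. Symbols were updated through the Entrez number.

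The members and lists were chosen with earlier results of these data known. The text names all 10 members, up to 4 called genes of each of 8 lists (123 of 138 genes measured), and the 3 genes nearest in pattern to FOS, EGR1 and FOSL1; genes named beyond these were chosen after their values were seen. The limma p-values rest on the spread between arrays, most of it borrowed from other probe sets (18.1 prior against 2 residual degrees of freedom). This spread may not cover that between separate transfections. The small number of arrays limits the precision. Replicates with the same number did not deviate together (correlation across probe sets -0.01). Alternatives changed the offset (1 or 64), the scaling (quantile, median), the variance moderation and the probe sets used (above the 25th or 50th signal percentile, averaged per gene, or all), added a replicate block, or left out an array.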

Additional observations from a re-analysis of the deposited data

How the results depend on the processing

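The 8 falls among the factors passed under each alternative in which the factor was fitted; with only probe sets above the 50th percentile NR4A2 and ATF3 were not fitted, and 6 falls were counted. FOS ranged from log2 -1.16 to -1.03, FOSB from -1.16 to -1.09 and EGR1 from -0.41 to -0.35. The p-values depended strongly on the variance moderation. Without a variance trend the limma adjusted p was 0.00153 for FOS, 0.0132 for JUN and 0.0141 for JUND. Signs turned for the factors that did not pass, in FOSL1 (-0.026, arrays centred on the median of all probe sets, an alternative chosen after seeing the data) and JUNB (-0.071 to 0.020 over the fits that leave out an array, positive without FOXC1 replicate 2). The shift of FOS, FOSB and EGR1 against FOSL1 and JUN ranged from -0.70 to -0.66 when each array was left out. With the replicate number as a block (replicate block), 8 factors fell, 0 rose, and 3099 genes were lower and 3339 higher, so no call of a factor changed; the numbers pair no samples in the labels. Counts over all genes moved more. The 2852 lower and 2925 higher became 1790 and 1461 without a variance trend, 3396 and 1739 with arrays centred on the median of all probe sets, and 2543 and 3758 when centred on the median of the named ones. The higher count was 1858 in a fit over all probe sets, and the counts without each array ran from 2059 to 3142 lower and 1913 to 2951 higher, with 1913 higher without vector replicate 2. List genes that fell numbered 49, and 30 without a variance trend. The causes were not tested. The dimmest factors, NR4A2 and ATF3, depended on the offset, with log2 -0.69 and -0.41 at 1 and -0.63 and -0.35 at 64.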

Other observations

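The genes beside the factors on their chromosomes moved in both directions, and 15.5% of all genes fell and 15.9% rose. Among the 5 measured genes on each side of FOS, in the order of the human assembly GRCh38.p14, 3 fell (NEK9, JDP2 and FLVCR2) and 0 rose, with a median log2 change of -0.03. FLVCR2 had the lowest value of these, -0.61, against -1.10 for FOS. Beside FOSB 4 rose (ERCC2, PPP1R13L, POLR1G and ERCC1) and 0 fell, with a median of 0.10, the opposite direction to FOSB. ERCC1 and ERCC2 encode proteins of nucleotide excision repair. Beside FOSL2 4 fell and 1 rose, with a median of -0.03, and beside EGR1 4 fell and 2 rose, with a median of 0.07. Beside NR4A2 the median was 0.05, with GALNT5 lower (log2 -0.76) and CYTIP higher (1.35), and 8 of the 10 neighbours did not pass. The neighbours of FOSL1 gave 2 falls and 1 rise, those of JUN 1 and 1, and those of JUNB 0 and 2. Those of JUND gave 1 fall and 4 rises, and those of ATF3 1 and 2. Across the 10 factors the median of the neighbours lay between -0.03 and 0.14.

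The genes whose pattern over the 4 arrays was nearest to that of FOS, by Euclidean distance of centred log2 values among 13874 brighter genes, were MILR1 (0.01), CNIH3 (0.04) and ADAM8 (0.05). MILR1 had 736 and 666 in FOXC1 cells, against 1510 in both vector arrays. DUSP18, EPN2 and AFDN were nearest to EGR1, at 0.01 to 0.02, and TWF1, SSRP1 and TMEM14C to FOSL1, at less than 0.01. With 4 arrays in 2 groups this distance mostly reflects the size of the group difference and says nothing of shared control.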
